A study of Mus musculus with 12 samples.

Results

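The growth hormone and IGF axis was followed through 10 genes in the liver and duodenum (called intestine here) of mice given corticosterone (CORT), the main glucocorticoid of rodents. The genes were Ghr, Igf1, Igfals, Igfbp1, Igfbp2, Igfbp3, Igfbp4, Socs2, Socs3 and Cish. They were chosen by name, with earlier results of these data known. All 10 were found among the 55416 genes listed in each tissue's table. Male C57BL6/J mice, 8 weeks old at the start, received CORT at 40 mg/kg or vehicle (Veh) under the skin every day for 8 weeks. No transgene or deletion was carried by either group. Each tissue was represented by 3 Veh and 3 CORT libraries from bulk RNA, 12 libraries in all. The sources used here do not say whether a library held 1 animal or a pool, or whether both tissues came from the same mice, so p-values measure the spread between these libraries.

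Growth hormone from the pituitary binds the receptor Ghr on hepatocytes and signals through the kinase JAK2 to STAT5, which switches on Igf1, Igfals and the feedback inhibitors Socs2 and Cish. IGF-I made by the liver circulates in a ternary complex with a binding protein, mostly IGFBP-3, and the acid-labile subunit encoded by Igfals, and the smaller binding proteins IGFBP-1, IGFBP-2 and IGFBP-4 carry and restrain the remainder. Glucocorticoids are known to blunt body growth, and the liver is the main source of circulating IGF-I.

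The 250 bases before the first listed start of Igfbp2 are shown because Igfbp2 was the member that passed the test in the liver. They lie at chr1:72824230-72824479 on the + strand of GRCm38.p6 in the RefSeq table, and the capitals mark the GC box GGGCGG, the core of a site bound by SP1-type factors, which was searched on both strands and occurred 3 times.
Igfbp2: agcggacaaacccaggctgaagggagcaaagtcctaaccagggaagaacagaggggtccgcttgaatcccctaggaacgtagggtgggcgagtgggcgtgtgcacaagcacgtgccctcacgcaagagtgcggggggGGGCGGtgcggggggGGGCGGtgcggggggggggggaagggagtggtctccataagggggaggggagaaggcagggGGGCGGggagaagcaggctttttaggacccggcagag
The GC box was present in 35.7% of all 32851 promoters of 300 bases in that table (250 bases before and 50 after each start). The 300 bases around this start of Igfbp2 held 67.0% G and C, against a median of 52.7% over all promoters. The table held 13 starts for 9 of the 10 members, with no entry for Socs2, and a GC box was found at 6 of those starts, of 5 members.

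The STAT5 element TTCNNNGAA, which reads the same on both strands, was searched because STAT5 carries the growth hormone signal. It was found in 8.30% of all promoters and at 4 of the 13 member starts, those of Cish, Socs3 and Igfals. The matches are in capitals below, each with up to 5 bases on either side. Cish held a pair at the start itself (chr9:107296654-107296683, + strand), Socs3 held 1 match 154 bases before its start (chr11:117969507-117969525, - strand), and Igfals held 1 match 236 bases before its first listed start (chr17:24877603-24877621, + strand) and 1 match 58 bases before its second (chr17:24878168-24878186, + strand).
Cish: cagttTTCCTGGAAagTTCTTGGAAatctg
Socs3: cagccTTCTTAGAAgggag
Igfals, first start: ataatTTCTCAGAAaagag
Igfals, second start: aggtgTTCCTAGAAgaggc
A glucocorticoid response element, spelled AGNACANNNTGTNCT and the same on both strands, was found in 0.064% of all promoters and in none of the 13 member promoters, which says only that these letters are not in these windows.

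The deposited values were TPM, transcript abundances corrected for length and scaled within each library, so levels of different genes can be compared but the read depth is lost. TPM summed to between 983327 and 997319 per library, with 17897 to 18891 genes above 0 in liver and 19466 to 20446 in intestine. Fkbp5, a direct glucocorticoid receptor target, was at 7.14, 12.7 and 19.5 TPM in the Veh livers and at 273, 249 and 221 TPM in the CORT livers, and it also rose in the intestine (log2 fold change 4.30 ± 0.34 (SE), adjusted p = 0.00450, limma). Tsc22d3, another target of the receptor, rose in the intestine (2.01 ± 0.25 (SE), adjusted p = 0.0185) and was at 31.3, 18.4 and 68.0 TPM in the Veh livers and at 161, 82.1 and 174 TPM in the CORT livers without passing there (adjusted p = 0.0623). Of 5 hepatocyte genes, Alb was at 32823 to 59476 TPM in liver and below 1 TPM in intestine, and Ttr and Cyp2e1 were below 11 TPM in intestine, while Apoa1 (8173 to 21477 TPM) and Cps1 (205 to 242 TPM), which enterocytes also express, were high there. Of 5 enterocyte genes, Vil1, Lct, Sis and Alpi were below 1 TPM in every liver library and at 203 TPM or more in every intestine library, and Fabp2 was at 26.3 to 111 TPM in liver and at 2204 to 6356 TPM in intestine. The liver library Veh2 stood apart for several members, as described below. In the intestine, 8 pancreatic acinar genes summed to 22027 TPM in Veh2 and 19028 TPM in Veh3, against 54.8 TPM in Veh1 and 0.74 to 1.02 TPM in the CORT libraries.

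In the Veh liver, the most abundant member was Igfbp4, at 891 ± 103 TPM (mean ± SD, n = 3). Igf1 followed at 424 ± 40.7 TPM and Igfbp2 at 413 ± 31.4 TPM, and the ranges of these last genes overlapped. Ghr stood at 212 ± 21.0 TPM and Igfbp1 at 111 ± 83.2 TPM, again with overlapping ranges. Igfals, at 48.2 ± 3.50 TPM, did not overlap with its neighbours on either side, but the gaps were narrow. Its range was 44.2 to 50.8 TPM, while the lowest Igfbp1 library was at 51.6 TPM and the highest Socs3 library at 41.9 TPM. The lowest 4 were Socs3 (17.5 ± 21.2 TPM), Igfbp3 (13.0 ± 13.1 TPM), Cish (7.24 ± 9.27 TPM) and Socs2 (6.46 ± 7.77 TPM), whose ranges all overlapped with the next in order. In the CORT liver Igfbp2 stood below Ghr and Igfbp1 in this order, at 97.0 ± 51.2 TPM with a range that overlapped that of Igfbp1, while Igfbp4 and Igf1 still led.

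CORT lowered Igfbp2, which encodes a binding protein secreted by hepatocytes, and no other member of the axis passed the test in the liver. A gene was said to pass when limma on log2(TPM + 1) gave a Benjamini-Hochberg adjusted p up to 0.05 together with a change of more than 1.5-fold. In liver the adjustment ran over the 11699 genes that averaged 1 TPM or more in Veh or in CORT. By that rule 6.92% of liver genes passed, 4.91% as higher and 2.01% as lower in CORT. All 10 members were tested, and 1 passed, as lower. The added 1 TPM shrinks the fold changes of genes at low levels. With 3 libraries per group the smallest two-sided p of an exact permutation test is 0.1, so single genes were judged by the fit across all genes.

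Igfbp2 was at 441, 419 and 379 TPM in the Veh livers and at 155, 56.9 and 79.5 TPM in the CORT livers. Every CORT library lay below every Veh library, with a gap from 155 to 379 TPM between the groups. The log2 fold change was -2.20 ± 0.34 (SE), with a 95% interval from -3.0 to -1.41 and an adjusted p of 0.0148, and the ratio of mean TPM was 0.235. The 3 Veh libraries agreed closely, with a coefficient of variation of 7.60%, while the CORT libraries spread more widely, at 52.8%. The adjusted p was 0.0538 with no filter on low values, 0.0560 without Veh1 and 0.0509 without Veh3, and the log2 fold change lay between -2.60 and -1.88 as each library was left out.

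**Figure D1:**
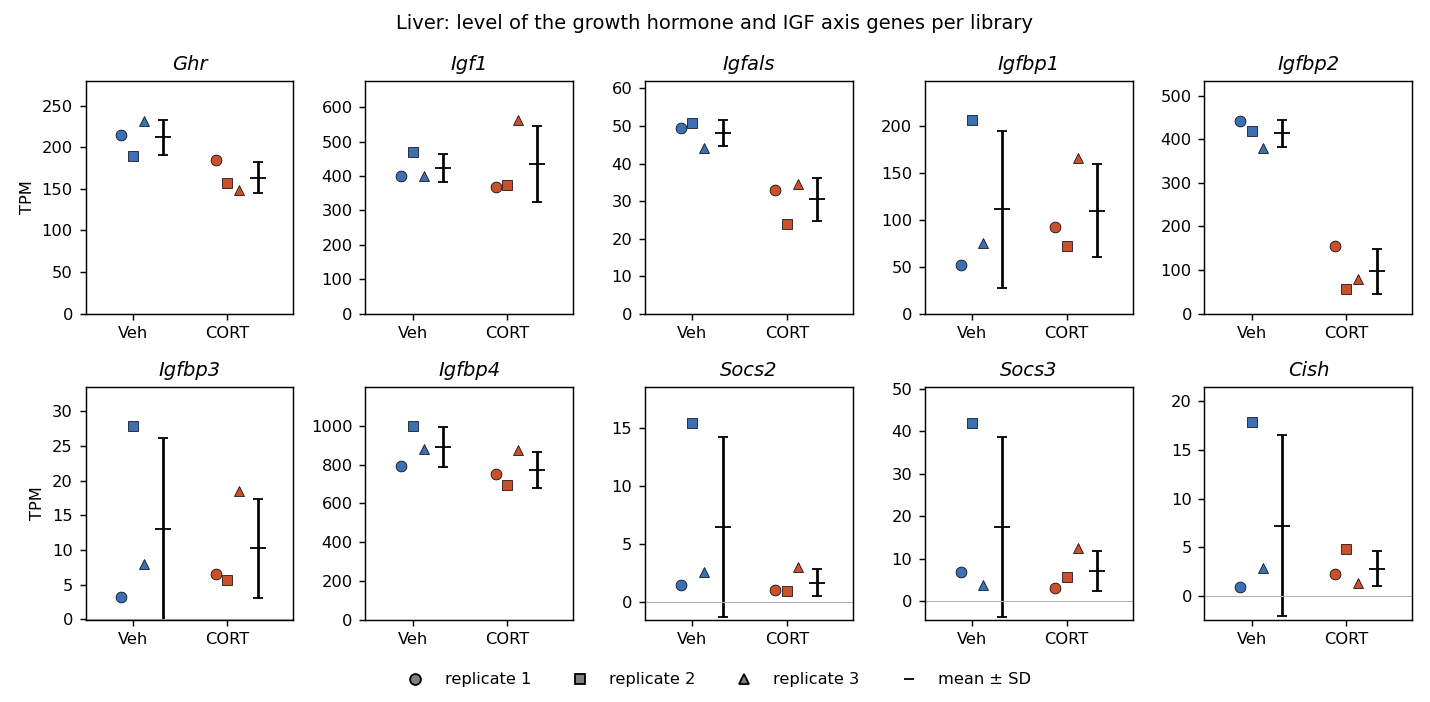
Level in TPM of the 10 members in each liver library, by group, with the mean and SD of each group of 3 beside the points. Igfbp2 and Igfals separate the groups most plainly, while for Socs2, Socs3 and Cish a single Veh library, Veh2, lies far above all the others, and for Igfbp3 Veh2 (27.9 TPM) is followed by CORT3 (18.5 TPM).

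The signal receptor and the subunit that stabilises circulating IGF-I were also lower in every CORT liver, but neither passed the test. Igfals was at 49.4, 50.8 and 44.2 TPM in the Veh livers and at 32.9, 24.0 and 34.6 TPM in the CORT livers. The groups did not overlap, and the log2 fold change was -0.66 ± 0.17 (SE), with a 95% interval from -1.05 to -0.26 and an adjusted p of 0.0616. It passed when the libraries were scaled by the median of their gene ratios (-0.75, adjusted p = 0.0424). Ghr was at 214, 190 and 232 TPM in the Veh livers and at 184, 157 and 148 TPM in the CORT livers. These groups were separated only narrowly, by 184 against 190 TPM, with a log2 fold change of -0.37 ± 0.14 (SE) and an adjusted p of 0.155.

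Igf1, the growth factor itself, was at 401, 471 and 401 TPM in the Veh livers and at 369, 375 and 563 TPM in the CORT livers. The groups overlapped, 2 CORT libraries lying just below all Veh libraries and CORT3 above them. The log2 fold change was 0.01 ± 0.19 (SE), and its 95% interval from -0.44 to 0.47 held changes of either sign; the sign turned without CORT3 (-0.18) and under the scaling by gene ratios (-0.08).

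Non-overlapping groups were frequent in this tissue, at 32.2% of all genes tested. The 3 of 10 members with such groups (Igfbp2, Igfals and Ghr) were therefore close to the background in number, and all were lower in CORT. Without adjustment of the p-values, and keeping the limit on fold change, 2 members passed (Igfbp2 and Igfals), against 15.5% of all genes. The median log2 fold change of the 10 members was -0.46, beside 0.08 over all genes tested, with 8 members below 0. Both values rested on the liver library Veh2: without it the median was -0.01, beside 0.17 over all genes, and 5 members were below 0.

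The remaining binding proteins did not pass in the liver. Igfbp4, which encodes a carrier that mainly inhibits IGF action, was at 794, 999 and 878 TPM in the Veh livers and at 750, 694 and 874 TPM in the CORT livers (log2 fold change -0.21 ± 0.15 (SE), adjusted p = 0.435). Igfbp1, whose transcription insulin suppresses and fasting raises, was at 51.6, 206 and 75.2 TPM in the Veh livers and at 92.1, 71.5 and 165 TPM in the CORT livers. The Veh livers alone spanned the whole range of the comparison, with Veh2 the highest library. The 95% interval of the log2 fold change ran from -1.11 to 1.39. Igfbp3, made in liver largely by cells other than hepatocytes, was at 3.20, 27.9 and 8.03 TPM in the Veh livers and at 6.60, 5.67 and 18.5 TPM in the CORT livers. The groups overlapped throughout, and the log2 fold change of -0.05 became 0.69 without Veh2.

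Among binding protein transcripts, the share of Igfbp2 was smaller in every CORT liver. The TPM of Igfbp1 to Igfbp7 summed to 1330, 1762 and 1402 in the Veh livers and to 1076, 898 and 1214 in the CORT livers, so the summed level was also lower in each CORT library. Igfbp2 made up 33.1%, 23.8% and 27.0% of that sum in the Veh livers and 14.4%, 6.33% and 6.55% in the CORT livers. Igfbp4 correspondingly held 56.7% to 62.6% in Veh and 69.7% to 77.3% in CORT, although its own level did not pass the test. These shares sum to a fixed total, so a lower share of 1 gene raises the others.

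**Figure D2:**
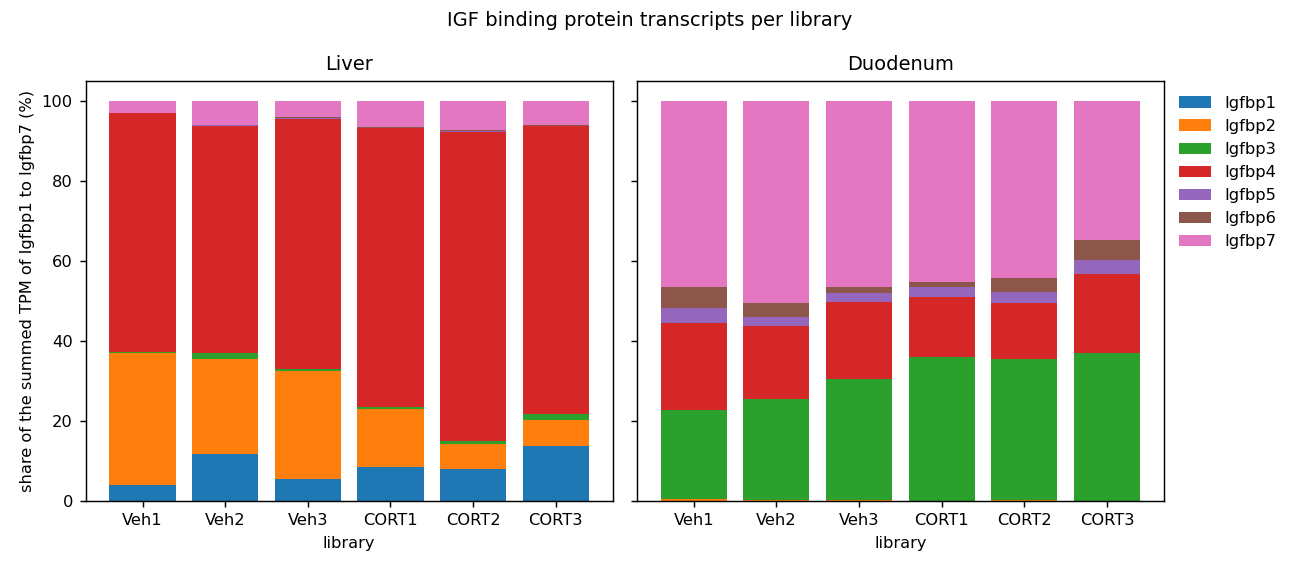
Share in percent of the summed TPM of Igfbp1 to Igfbp7 held by each gene, 1 bar per library, liver on the left and duodenum on the right. The Igfbp2 segment is 23.8% to 33.1% in the Veh livers and 6.33% to 14.4% in the CORT livers, and in the duodenum the Igfbp3 segment is 22.4% to 30.3% in Veh and 35.2% to 37.0% in CORT.

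The feedback inhibitors of the receptor, which bind it or its kinase and are switched on by STAT proteins, were low and were dominated by the single liver library Veh2. Socs2 was at 1.39, 15.4 and 2.58 TPM in the Veh livers and at 1.03, 0.87 and 2.96 TPM in the CORT livers. Socs3, which also answers to cytokines such as interleukin-6, was at 6.77, 41.9 and 3.86 TPM in Veh and at 3.12, 5.64 and 12.4 TPM in CORT. Cish was at 0.96, 17.9 and 2.87 TPM in Veh and at 2.27, 4.83 and 1.37 TPM in CORT. In each of these genes the groups overlapped, and Veh2 was the highest of the 6 liver libraries.

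Veh2 exceeded the mean of the other Veh livers 7.76-fold for Socs2, 7.89-fold for Socs3, 9.34-fold for Cish and 4.96-fold for Igfbp3. Over all liver genes tested with a level in Veh, 204 of 11599 (1.76%) were more than 4-fold above the other Veh libraries in Veh2, against 77 in Veh1 and 68 in Veh3, and 4 of the 204 were members. The coefficient of variation in the Veh livers was 120% for Socs2, 121% for Socs3, 128% for Cish, 100% for Igfbp3 and 75.0% for Igfbp1, beside a median of 18.5% over those genes. It was only 7.26% for Igfals, 9.91% for Ghr, 9.60% for Igf1 and 11.6% for Igfbp4. The members thus fell into a set with like levels in all Veh livers and a set that varied widely between them.

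With all libraries, the log2 fold changes of the inhibitors in liver were -1.07 ± 0.70 (SE) for Socs2, -0.72 ± 0.82 (SE) for Socs3 and -0.55 ± 0.79 (SE) for Cish, with adjusted p-values of 0.381, 0.617 and 0.693 from limma. Without Veh2 they were -0.25, 0.22 and 0.37, so the sign turned for Socs3 and Cish. Endothelial markers also moved with treatment in the liver. All 6 were higher in every CORT library, beside 32.2% of all liver genes tested with groups that did not overlap. The test was passed by 3 of them, beside 4.91% of all liver genes that passed as higher. These 6 markers summed to 22.6 to 48.5 TPM in Veh and 83.8 to 113 TPM in CORT. Within Veh, the same 6 markers, all 6 stellate cell and fibroblast markers, all 4 smooth muscle markers, all 5 lymphocyte markers, 3 of 5 macrophage markers and also 4 of 5 hepatocyte genes were highest in Veh2. The share of all genes that were highest in Veh2 was not counted, so these counts stand without a background. The lymphocyte markers summed to 1.18 to 4.49 TPM in the Veh livers and 0.06 to 0.50 TPM in the CORT livers. Only 1 of these 5, Cd79a, reached 1 TPM in a liver group, and it did not pass (adjusted p = 0.137, limma). The part of these cell types in the members' levels was not tested. In bulk RNA, fewer cells of a type and less RNA per cell cannot be told apart. The summed level of 5 hepatocyte genes was 51770 to 86130 TPM in Veh and 63257 to 78298 TPM in CORT, which overlapped.

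**Figure D3:**
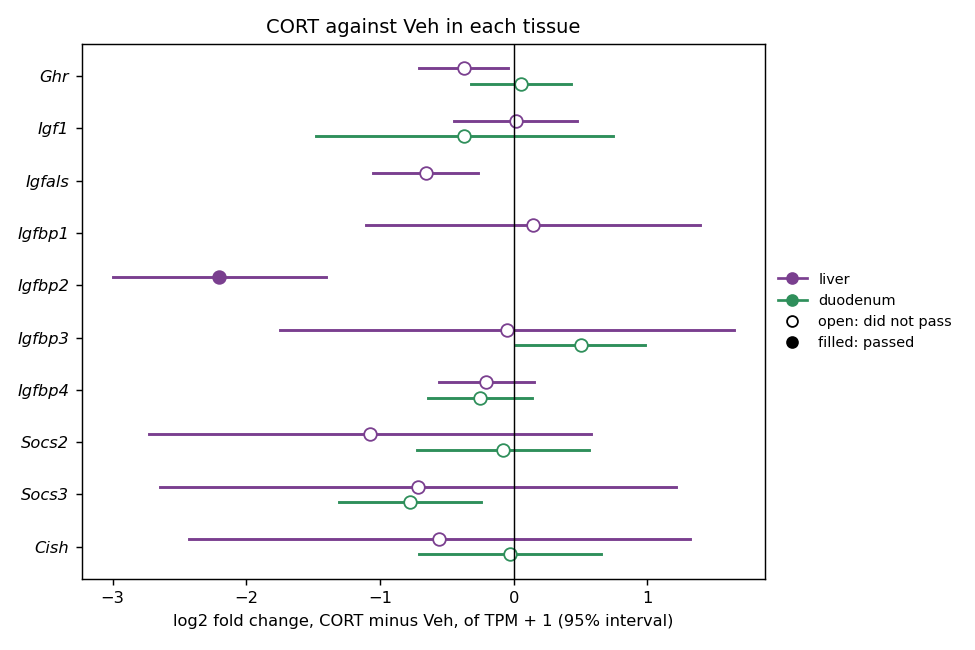
Log2 fold change of TPM + 1 (CORT minus Veh) for each member in liver and duodenum, as points with 95% intervals, with a filled point where the gene passed the test. Only Igfbp2 in liver is filled, at -2.20, and the intervals of Socs2, Socs3, Cish, Igfbp1 and Igfbp3 in liver are the widest; members under 1 TPM in both duodenum groups have no point there.

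In the intestine no member passed the test. Of the 10 members, 7 averaged 1 TPM or more in a group and were tested; Igfals and Igfbp2 lay at or below 1.10 TPM in every library, and Igfbp1 was listed at 0 in all 6. Of 13607 genes tested, 2.15% passed. Without adjustment of the p-values 1 member passed, Socs3, beside 10.3% of all genes. The median log2 fold change of the 7 members was -0.08, beside -0.01 over all genes tested.

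Socs3 was at 10.6, 6.12 and 10.5 TPM in the Veh intestines and at 3.91, 5.48 and 4.92 TPM in the CORT intestines. Every CORT library lay below every Veh library, with a log2 fold change of -0.77 ± 0.23 (SE), a 95% interval from -1.31 to -0.24, an unadjusted p of 0.0109 and an adjusted p of 0.138 from limma. The adjusted p lay between 0.0887 and 0.351 over the alternatives. Igfbp3 went the other way, at 26.7, 43.5 and 43.4 TPM in Veh and at 49.3, 54.4 and 54.9 TPM in CORT. Again the groups did not overlap, with a log2 fold change of 0.50 ± 0.20 (SE), which is below the required fold change, and an adjusted p of 0.242. Without Veh1, the lowest library, the log2 fold change of Igfbp3 was 0.27. With the acinar genes removed and the libraries rescaled, the log2 fold changes were -0.79 for Socs3 and 0.48 for Igfbp3. That step corrects only the library total. It cannot remove Socs3 or Igfbp3 transcripts from pancreatic tissue in a sample, and their part was not tested. Groups that do not overlap were found for 26.4% of all intestine genes and for these 2 of the 7 members tested.

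The other members overlapped between the groups in the intestine. Ghr was at 4.58, 6.64 and 6.10 TPM in Veh and at 5.86, 5.66 and 6.48 TPM in CORT, a log2 fold change of 0.06 with a 95% interval from -0.32 to 0.43. Socs2 was at 12.6, 16.9 and 9.98 TPM in Veh and at 8.78, 11.7 and 17.2 TPM in CORT. Cish was at 4.25, 6.50 and 5.10 TPM in Veh and at 3.32, 8.14 and 4.76 TPM in CORT. Neither of these STAT5 targets showed a direction, their log2 fold changes being -0.08 ± 0.27 (SE) and -0.03 ± 0.29 (SE). Igfbp4 was at 25.8, 31.6 and 27.9 TPM in Veh and at 20.7, 21.9 and 29.2 TPM in CORT (log2 fold change -0.25 ± 0.16 (SE)). Igf1, whose transcripts in gut come mainly from cells of the connective tissue, was at 0.93, 4.64 and 1.00 TPM in Veh and at 0.44, 1.57 and 1.74 TPM in CORT.

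**Figure D4:**
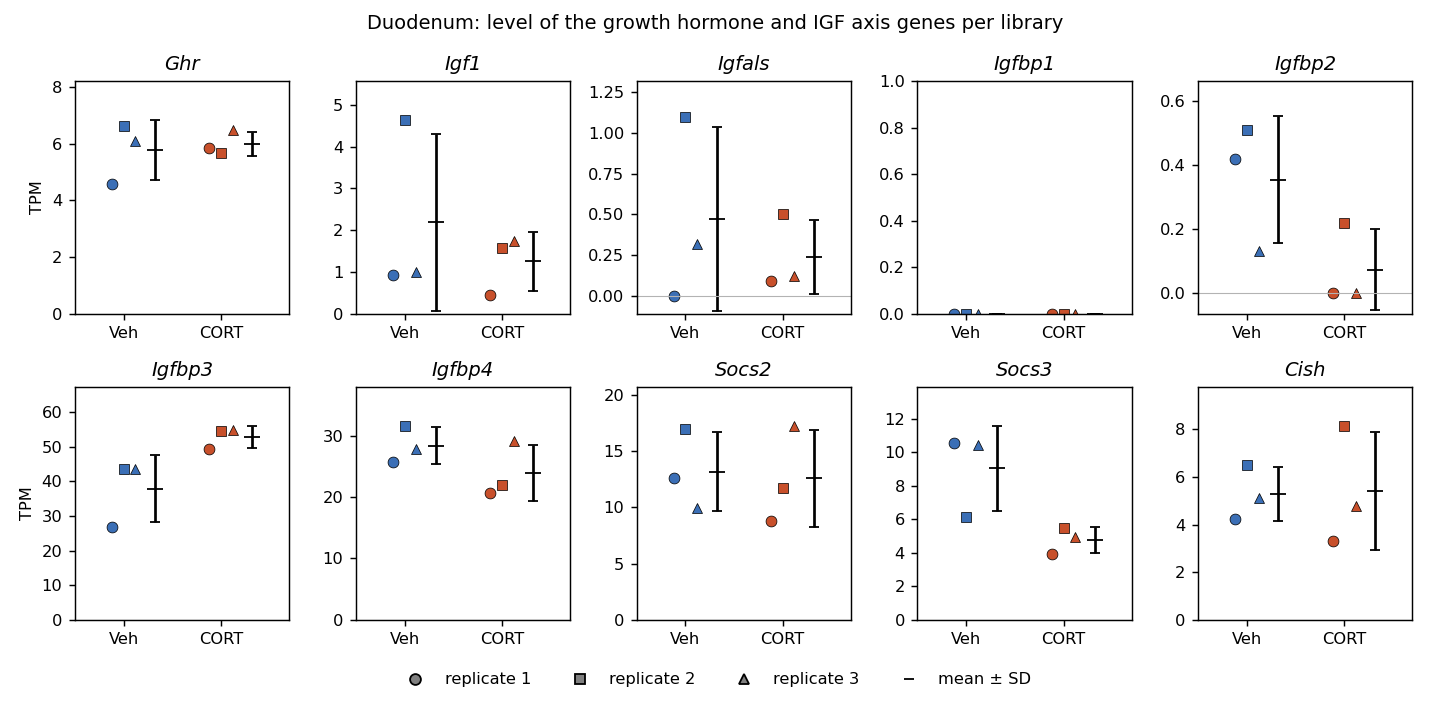
Level in TPM of the 10 members in each duodenum library, by group, with the mean and SD of each group of 3. Socs3 is lower and Igfbp3 higher in all 3 CORT libraries, Igfbp1 is listed at 0 throughout, and Igfals and Igfbp2 stay at or below 1.10 TPM.

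Between the tissues of the vehicle group, the endocrine arm of the axis was far higher in liver, and the feedback inhibitors did not pass. The tables were deposited separately but list the same genes in the same order, and TPM is scaled within each library, so levels were set side by side. Of 14134 genes tested, 67.4% passed, 14.4% as higher and 53% as lower in liver. The median log2 difference over all genes was -0.72 (-0.06 after scaling by gene ratios), and the members are to be read relative to that shift. Of the 10 members, 6 passed as higher in liver, 1 as lower, and 3 did not pass, with a median log2 difference of 4.95.

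Igf1 was 424 ± 40.7 TPM in the Veh liver and 2.19 ± 2.12 TPM in the Veh intestine, a log2 difference of 7.25 ± 0.41 (SE) with an adjusted p of 5.57e-06 from limma. Igfbp2 differed most, with 413 ± 31.4 TPM against 0.353 ± 0.199 TPM and a log2 difference of 8.27 ± 0.15 (SE). Ghr was 212 ± 21.0 TPM against 5.77 ± 1.07 TPM, so the receptor was measured in both tissues but at a 36.7-fold higher mean in liver. Igfals (48.2 against 0.473 TPM) and Igfbp4 (891 against 28.4 TPM) also passed, with log2 differences of 5.13 and 4.92. Igfbp1 passed too, but it was listed at 0 in the intestine, and no fold is given. These 6 calls held under all 11 alternatives.

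Igfbp3 was the exception among the binding proteins that are members, at 13.0 ± 13.1 TPM in liver and 37.9 ± 9.66 TPM in intestine. Its log2 difference of -1.88 ± 0.65 (SE) passed with an adjusted p of 0.0334, but the groups overlapped through the liver library Veh2, and the call was lost in 7 of 11 alternatives, holding among the libraries left out only without Veh2 (-2.63). Igfbp3 was the most abundant member in the intestine, its range overlapping that of Igfbp4 in Veh but not in CORT. Socs2 was 6.46 ± 7.77 TPM in liver and 13.2 ± 3.52 TPM in intestine (log2 difference -1.42, adjusted p = 0.0947), Socs3 was 17.5 ± 21.2 TPM against 9.04 ± 2.53 TPM, and Cish was 7.24 ± 9.27 TPM against 5.28 ± 1.14 TPM. Without the liver library Veh2 the log2 difference of Socs2 was -2.25 and passed (adjusted p = 0.000860), that of Cish was -1.17 and passed (adjusted p = 0.0202), and that of Socs3 was -0.67 (adjusted p = 0.0954). Leaving that library out thus turned the sign for Socs3 alone, and for Socs2 and Cish it kept the sign and changed the call.

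The responses of both tissues were compared in a fit of all 12 libraries with a treatment by tissue term. Among 14806 genes tested 3.6% passed. Of the 10 members 1 passed, Igfbp2, at -1.87 ± 0.41 (SE) on the log2 scale (liver minus intestine, adjusted p = 0.0314). In the intestine, however, Igfbp2 was at 0.42, 0.51 and 0.13 TPM in Veh and at 0, 0.22 and 0 TPM in CORT, so it entered this fit only through its liver level, and the added 1 TPM flattens any change in the intestine. With a pseudocount of 0.1 in place of 1 the term was -0.71 with an adjusted p of 0.656, and the CORT to Veh ratio of mean TPM was 0.235 in liver and 0.208 in intestine. No difference of the Igfbp2 response between the tissues is therefore read from this term. For Socs3 and Igfbp3, the members with non-overlapping groups in the intestine, the differences between tissues were 0.06 ± 0.95 (SE) and -0.55 ± 0.84 (SE), and neither passed.

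Of 29 other genes of the pathway (further binding proteins, receptors, JAK2 and STAT5, phosphatases, further SOCS proteins and liver transcription factors), 22 were tested in the liver and 3 passed, all as higher in CORT. Over all liver genes tested, 4.91% passed as higher. Ptpn1, which encodes the phosphatase PTP1B that dephosphorylates JAK2 and the insulin receptor, was at 7.48, 8.39 and 6.81 TPM in Veh and at 13.5, 13.6 and 13.5 TPM in CORT (log2 fold change 0.77 ± 0.12 (SE), adjusted p = 0.0171). Ptpn11, which encodes the phosphatase SHP2, was at 10.5, 13.7 and 10.7 TPM in Veh and at 20.6, 17.1 and 18.5 TPM in CORT (0.65 ± 0.15 (SE), adjusted p = 0.0470). Hnf4a, a master transcription factor of hepatocytes, was at 145, 161 and 144 TPM in Veh and at 279, 233 and 316 TPM in CORT (0.86 ± 0.15 (SE), adjusted p = 0.0211).

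Upstream of the members, the kinase gene Jak2 was at 2.34, 3.59 and 2.72 TPM in the Veh livers and at 1.90, 2.19 and 2.57 TPM in the CORT livers and did not pass. Stat5b, the main STAT5 gene of liver, was at 9.40 to 11.3 TPM in Veh and at 9.11 to 10.2 TPM in CORT, and Stat5a was higher in every CORT library without passing (0.59 ± 0.15 (SE), adjusted p = 0.0628). The median log2 fold change of the 22 genes was 0.17, beside 0.08 over all genes, and 0.03 beside 0.02 without Veh1. The groups of all 3 genes were apart, and as each library was left out the log2 fold changes stayed between 0.70 and 0.84 for Ptpn1, 0.59 and 0.77 for Ptpn11 and 0.76 and 0.98 for Hnf4a. The number of calls was 0 without Veh1, without Veh3 or without CORT1 and 1 without CORT2, settings in which the calls over all genes also fell, from 810 to between 247 and 435.

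In the intestine 24 of these 29 genes were tested and 0 passed in limma, with 1 (Socs1) past the limits without adjustment. Over all intestine genes tested, these shares were 2.15% and 10.3%. Socs1, an inhibitor of cytokine signalling related to Socs3, was at 0.99, 1.64 and 1.52 TPM in Veh and at 0.34, 0.69 and 0.21 TPM in CORT (log2 fold change -0.76 ± 0.23 (SE), adjusted p = 0.155). Between the Veh tissues 5 of 24 were higher in liver (Bcl6, Insr, Irs1, Onecut1 and Stat5b) and 13 were lower (Igf2, Igf2r, Igfbp5, Igfbp6, Irs2, Jak2, Ptpn1, Ptpn2, Ptpn6, Shc1, Socs1, Socs4 and Socs7). Over all genes tested, 14.4% passed as higher and 53% as lower in liver, so the number of lower genes is close to the background. Jak2 differed most of the lower genes, at 2.34 to 3.59 TPM in liver and 25.03 to 29.0 TPM in intestine (log2 difference -2.85 ± 0.16 (SE)). The liver thus combined the higher Ghr level with the lower Jak2 level.

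Liver genes that differ between the sexes are known readouts of growth hormone, since its pulses in male mice act through STAT5b. Of 11 male-biased genes all were tested and 1 passed, as lower in CORT. Over all liver genes tested 6.92% passed, 2.01% as lower. Hsd3b5, a hydroxysteroid dehydrogenase gene, was at 181, 48.6 and 135 TPM in Veh and at 5.41, 0.36 and 1.22 TPM in CORT (log2 fold change -5.32 ± 0.67 (SE), adjusted p = 0.00774). Selenbp2 was at 934, 365 and 576 TPM in Veh and at 137, 20.01 and 162 TPM in CORT, and Cyp7b1, an oxysterol hydroxylase gene, was at 175, 45.5 and 86.7 TPM in Veh and at 36.4, 14.9 and 32.7 TPM in CORT. Neither passed, with log2 fold changes of -2.90 (adjusted p = 0.0716) and -1.72 (adjusted p = 0.0953). Their groups did not overlap, and neither did those of Hsd3b5. That made 3 of the 11 genes, beside 32.2% of all liver genes tested. The median of the list was -0.54, with 9 of 11 genes below 0, beside 4862 of 11699 of all genes. The list was chosen with earlier results of these data known, so no support is drawn from this count. Elovl3 and Moxd1 were the 2 above 0.

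Of 18 female-biased genes only 7 reached 1 TPM in a group, and 1 passed, as higher in CORT. Over all liver genes tested 4.91% passed as higher. Trim24, a transcriptional cofactor gene, was at 4.55, 5.76 and 4.51 TPM in Veh and at 7.92, 7.94 and 8.46 TPM in CORT (0.62 ± 0.13 (SE), adjusted p = 0.0407). Its call was lost without Veh1, Veh3, CORT1 or CORT3, under the scaling by gene ratios and with the replicate number as a block. All 7 tested genes had log2 fold changes above 0, with a median of 0.82, but genes of such low level in Veh entered the test only through the group where they were higher, so no support is drawn from that count. Several genes of both lists belong to families of near-identical copies (Cyp2c, Cyp2d, Cyp3a, Cyp4a, Mup, Ugt2b and Hsd3b genes), between which reads can be split, and their values are uncertain to that extent. The order of libraries within Veh differed here: Veh2 was the lowest Veh liver for Hsd3b5, Selenbp2 and Cyp7b1 and the highest for Socs2, Socs3 and Cish.

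**Figure D5:**
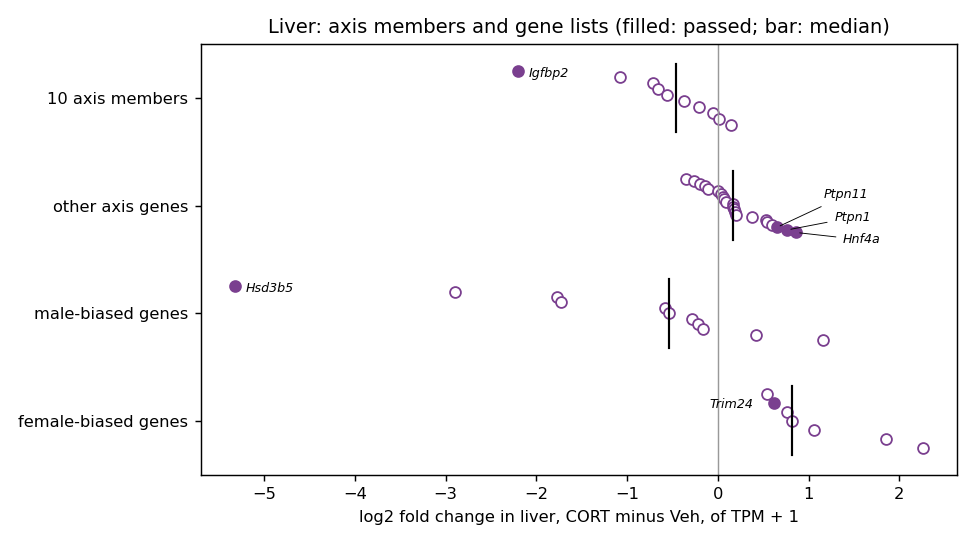
Log2 fold change of TPM + 1 in liver (CORT minus Veh) of each gene tested, for the 10 members, the other axis genes, and male- and female-biased liver genes, with filled points for genes that passed and a bar at each list's median. The medians are -0.46 (-0.01 without Veh2), 0.17, -0.54 and 0.82, and the filled points are Igfbp2, Hsd3b5, Trim24 and the 3 axis genes Hnf4a, Ptpn1 and Ptpn11.

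In the intestine 4 male-biased and 4 female-biased genes were tested and 0 passed in limma, with 1 (Ugt2b38) past the limits without adjustment. The shares over all intestine genes tested were 2.15% and 10.3%. Ugt2b38, a glucuronosyltransferase gene, was at 4.34, 7.24 and 9.95 TPM in Veh and at 1.22, 2.10 and 2.21 TPM in CORT (log2 fold change -1.48 ± 0.29 (SE), adjusted p = 0.0559).

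Across all 12 libraries, the genes most like Ghr, Igf1 and Igfals by Pearson's correlation of log2(TPM + 1) were other liver genes. They were Asgr2, Ces3b and Mup3 for Ghr (r = 0.999, 0.998 and 0.998), C3, Vtn and Ces1c for Igf1 (r = 0.997, 0.997 and 0.997) and Pglyrp2, Slc38a3 and Apom for Igfals (r = 0.996, 0.995 and 0.995). Of 14806 genes searched, 255, 153 and 92 had r over 0.99 with Ghr, Igf1 and Igfals. The libraries fall into 2 tissues, so these values describe the gap between liver and intestine.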

How the data were processed

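RNA-seq of liver and duodenum from 3 Veh and 3 CORT libraries per tissue was analysed (50 mg of tissue per sample). The deposited tables give TPM for each gene in each library, made by the authors by trimming with SeqPrep and Sickle, alignment with HISAT2, assembly with StringTie and quantification with RSEM. Tool versions are not given in the sources used here, and the submitters' processing notes name GRCm39 as the build. Groups and replicate numbers were taken from the labels. Genes averaging 1 TPM or more in a group under comparison were fitted on the scale log2(TPM + 1) with limma 3.58.1 in R 4.3.3 (lmFit, eBayes with a trend) and Benjamini-Hochberg adjustment over all of them. Adjusted p-values are limma's. The groups were CORT and Veh in each tissue, Veh liver and Veh intestine, and all libraries with a treatment by tissue term. The authors used DESeq2 on counts, which were not used here. TPM keeps no depth, so no counting error can be given. The fits were tested on simulated data. Same-numbered Veh and CORT libraries did not deviate together within a tissue (correlations of deviations from -0.12 to 0.038 in liver and from -0.004 to 0.073 in intestine). Between liver and intestine, those of same-numbered libraries ran from -0.005 to 0.033 in Veh and from -0.077 to 0.033 in CORT. Replicate numbers were therefore not used as pairs. Alternatives were a pseudocount of 0.1, no filter, scaling by the median of gene ratios, the replicate number as a block, each library left out, p-values without adjustment, calls without a limit on fold change and, where the intestine entered, removal of 8 acinar genes. All members were named, and from each list the genes that passed or whose groups did not overlap with a fold change over 2. One gene chosen by this rule is not reported here. The members and lists were chosen with earlier results of these data known. Promoter sequences are RefSeq's for GRCm38.p6, matched by symbol, and no coordinates were transferred between builds.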

Additional observations from a re-analysis of the deposited data

Results flagged for a closer look

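Igfbp2 passed the treatment by tissue term of limma, at -1.87 ± 0.41 (SE) on the log2 scale (liver minus intestine, adjusted p = 0.0314). In the intestine Igfbp2 was at or below 0.51 TPM in every library, under the limit of 1 TPM that it met only in liver, so the added 1 TPM flattens any intestine change and no difference of response is read from the term. The CORT to Veh ratio of mean TPM was 0.235 in liver and 0.208 in intestine. The adjusted p lay between 0.00217 and 0.656 over 17 alternatives, and the call was lost in 11 of them: with a pseudocount of 0.1, with no filter, and without any 1 of the liver libraries Veh1, Veh2, Veh3 and CORT3 or of the intestine libraries Veh2, Veh3, CORT1, CORT2 and CORT3.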

How the results depend on the processing

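TPM hold no depth, groups of 3 limit precision, and genes near 1 TPM depend on the pseudocount and filter. In liver the 1 member called became 0 with no filter and 2 under median-ratio scaling or at an unadjusted p, and 0 to 1 as each library was left out. The 3 other axis genes called in liver became 1 with no filter and 0 with the replicate block, and 0 to 4 as libraries were left out. The 1 male-biased gene became 3 with the replicate block, 4 at an unadjusted p, and 1 to 2 as libraries were left out. The 1 female-biased gene became 2 with a pseudocount of 0.1, 0 under median-ratio scaling, 0 with the replicate block, 5 at an unadjusted p, and 0 to 1 as libraries were left out. In the intestine the 0 members and 0 other axis genes called became 1 and 1 at an unadjusted p. The 7 members called between tissues were 6 to 9 over all alternatives. For the difference of responses, the 1 member called became 0 with a pseudocount of 0.1 and with no filter, and 0 to 1 as libraries were left out. The replicate block changed no call of a member in the liver or intestine, while over all genes it gave 307 calls in liver and 62 in intestine, against 810 and 292. All-gene counts also moved with no filter (283 in liver, 52 in intestine), with a split under median-ratio scaling of 543 higher and 469 lower in liver against 575 and 235, and of 3815 higher and 4388 lower between tissues against 2029 and 7495. Leaving out 1 library gave 247 to 831 calls in liver, 66 to 237 in intestine and 289 to 626 for the difference of responses, against 533 there.

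No called member changed sign. Among members that did not pass, leaving out 1 library turned the sign in liver for Igf1 (-0.18 to 0.12), Igfbp1 (-0.28 to 0.71), Igfbp3 (-0.70 to 0.69), Socs3 (-1.35 to 0.22) and Cish (-1.26 to 0.37), and in the intestine for Ghr (-0.0751 to 0.15), Igf1 (-0.63 to 0.14), Socs2 (-0.32 to 0.13) and Cish (-0.32 to 0.22). It did so between tissues for Socs3 (-0.67 to 0.90) and Cish (-1.17 to 0.46), and for the difference of responses for Igf1 (-0.13 to 0.65), Igfbp1 (-0.28 to 0.71), Igfbp3 (-1.20 to 0.19), Igfbp4 (-0.0493 to 0.19), Socs3 (-0.58 to 0.99) and Cish (-1.24 to 0.40). Median-ratio scaling turned Igf1 in liver (-0.0803), Cish between tissues (0.38), and the differences of responses of Igfbp4 (-0.0582) and Socs3 (-0.065). The cause was not tested. The medians of the liver lists under these settings, computed after seeing the data, lay between -0.67 and -0.01 for the members (-0.01 without Veh2), 0.03 and 0.31 for the other axis genes, -0.70 and -0.42 for the male-biased genes and 0.58 and 1.88 for the female-biased genes.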
